A study of Mus musculus with 12 samples.

Results

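The colony-stimulating factors and their receptors are 9 genes, 3 that encode ligands (Csf1, Csf2 and Csf3) and 6 that encode receptor chains (Csf1r, Csf2ra, Csf2rb, Csf3r, Flt3 and Kit). They were followed on 12 arrays of messenger RNA from lymph node dendritic cells of C57BL/6 mice. A probe set, a group of short probes read together, belonged to a member where the platform annotation gave it that 1 gene symbol, which held for 17 of 45101 probe sets. All 9 members lay above the expression filter and were tested, among 12792 genes tested of 18194 named. Cells labelled wild type (WT) and cells labelled p38a-knockout (KO) were cultured and given the lipopeptide Pam3CSK4, a ligand of TLR2, whose labelled dose was 1 mg/ml. RNA was taken at 0, 2 and 4 h, with 2 arrays, A and B, for each genotype label and time. Every array at 2 and 4 h came from cells given the ligand, so an effect of the ligand and one of time in culture cannot be told apart. The age of the mice, the number of animals pooled and the promoter or cell type in which the gene was deleted are not given in the sources used here.

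CSF1 (M-CSF), CSF2 (GM-CSF) and CSF3 (G-CSF) are secreted proteins that drive the survival and growth of macrophages, dendritic cells and neutrophils. CSF1R, FLT3 and KIT are related receptor tyrosine kinases, and CSF2 and CSF3 act through cytokine receptors that carry no kinase of their own and signal through JAK2 and STAT proteins. FLT3 supports the development of dendritic cells from precursors, CSF2 keeps mature and inflammatory dendritic cells alive, and CSF1R marks cells of the macrophage lineage and some dendritic cells.

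Values are signals after quantile normalization, which gives every array the same distribution, so a change is relative to the bulk of probe sets. Differences are on the scale of log2(signal + 16), which understates changes of dim genes, and each stands with its standard error (SE) from limma. A gene was called, and is said to have risen or fallen, where limma's p adjusted by Benjamini-Hochberg over all genes tested was under 0.05. The 2% trimmed means of the deposited arrays ran from 66.6 to 119, and the median SD within a group was 0.145. Of the 10 dendritic cell markers measured all passed the filter, with Fscn1 between 10144 and 11927 over the arrays, Ccr7 between 6428 and 8410, Zbtb46 between 389 and 613 and Itgax, which encodes CD11c, between 79.6 and 165. Xcr1 and Cd209a, markers of subsets, stayed at or under 20.9. Mapk14, which encodes p38α, was not lower on the KO arrays (0.31 ± 0.08 higher on average over the times, adjusted p = 0.014). The position of the deletion relative to its probes was not given, so this neither checks nor refutes the labels, and genotype is given throughout as labelled.

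**Figure D1:**
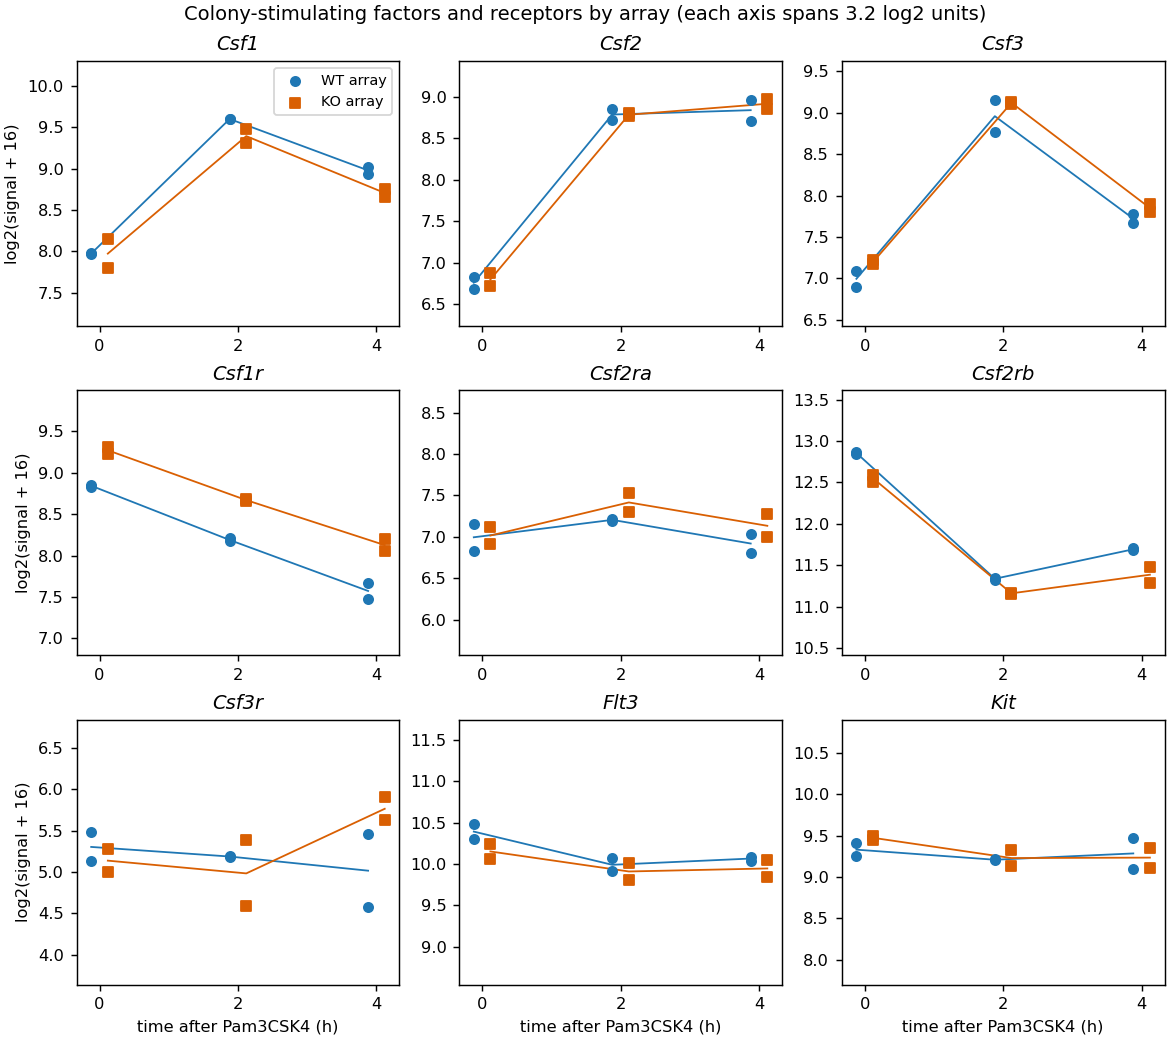
Log2(signal + 16) of each member on each array against time in hours, with circles for WT arrays, squares for KO arrays and lines through the means of the 2 arrays. Csf1, Csf2 and Csf3 are higher at 2 h than at 0 h on all arrays, Csf2rb and Csf1r are lower, and Csf3r, near the filter, has its arrays spread from 4.57 to 5.90.

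At 2 h the 3 ligand genes had risen and the receptor genes Csf2rb and Csf1r had fallen in both genotype labels. In WT arrays 6 of 9 members were called at 2 h, where 19.9% of all genes tested were called; 3 were higher (8.43% of all genes) and 3 lower (11.5%). In KO arrays 5 were called at 2 h, beside 19.6% of all genes, 3 of them higher (7.85%) and 2 lower (11.7%). At 4 h the counts were again 6 in WT and 5 in KO, beside 18.2% and 18.1% of all genes. From 2 to 4 h 4 members changed in each label, Csf1, Csf3, Csf1r and Csf2rb, beside 11.1% of all genes in WT and 13.7% in KO. On the deposited scale, which keeps the differences in brightness between arrays, the median of all genes was itself shifted by -0.35 in WT and -0.41 in KO at 2 h, so the changes given here are relative to that bulk. No called change of a member was reversed under any setting tried.

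Csf2, the gene of GM-CSF, rose about 4-fold at 2 h and stood as high at 4 h. Its signals on WT arrays were 86.9 and 97.7 (0 h), 447 and 406 (2 h), then 484 and 404 (4 h). On KO arrays they were 101 and 89.6 (0 h), 431 and 419 (2 h), then 489 and 447 (4 h). Every array at 2 or 4 h was above every array at 0 h, and the genotype labels overlapped at each time. The WT change at 2 h was 2.03 ± 0.11, or 4.09-fold (adjusted p = 1.2e-09), and at 4 h it was 2.08 ± 0.11, or 4.24-fold. In KO arrays the changes were 1.99 and 2.12. From 2 to 4 h the difference was 0.05 in WT (95% interval -0.18 to 0.28) and 0.13 in KO (-0.10 to 0.36), neither called. T lymphocytes also make GM-CSF. Of 7 T cell markers tested 1, Il7r, fell at 2 h in WT, by 1.28, where 11.5% of all genes fell. The median change of the 7 was -0.09. The summed signal of the 8 T cell markers measured lay between 2695 and 2983 at 0 h in WT. By 2 h it lay between 1571 and 1650. That sum includes Il7r, at 694 to 2140.5 over the arrays, and Cd4, which was below the filter. The part of T cells in the Csf2 change was not tested. In bulk RNA of this kind, fewer cells of a type and less RNA per cell cannot be told apart.

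Csf3, the gene of G-CSF, rose at 2 h and had fallen again by 4 h. WT arrays gave 103 and 120.4 (0 h), 552 and 419.8 (2 h), then 204 and 187 (4 h). KO arrays gave 128 and 134 (0 h), 535 and 546 (2 h), then 208 and 222 (4 h). The 3 times did not overlap in either label. The rise at 2 h was 1.96 ± 0.12 in WT (3.90-fold, adjusted p = 6.5e-09) and 1.92 in KO. From 2 to 4 h Csf3 fell by 1.24 ± 0.12 in WT (adjusted p = 7.8e-06) and fell by 1.27 in KO, and at 4 h it was still above 0 h by 0.73 and 0.65. Those remaining differences at 4 h were not called on the deposited scale (adjusted p = 0.22 in WT and 0.33 in KO).

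Csf1, the gene of M-CSF, the growth factor of macrophages, also peaked at 2 h. WT arrays read 234 and 237 (0 h), 760.4 and 758 (2 h), then 503 and 473 (4 h). KO arrays read 268 and 206 (0 h), 698 and 615 (2 h), then 388 and 416 (4 h). The times were separate in both labels, and at 2 and 4 h both KO arrays were below both WT arrays. Csf1 rose by 1.62 ± 0.11 at 2 h in WT (3.08-fold, adjusted p = 1.5e-08) and by 1.42 in KO, then fell by 0.62 and 0.69 from 2 to 4 h. At 4 h it remained above 0 h by 1.00 in WT and 0.73 in KO. The KO change at 4 h lost its call on the deposited scale, and also when its probe sets were averaged (adjusted p = 0.22 and 0.076). The falls from 2 to 4 h were not called on the deposited scale (adjusted p = 0.45 in WT and 0.41 in KO), and the WT one also not with averaged probe sets (0.093).

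Csf1 was read by 4 probe sets, which gave the same sign in the changes from 0 h but not the same size. In WT at 2 h all 4 rose, by 0.76 to 1.62. In KO at 2 h 2 rose, at 1.42 and 1.35, and the other two, 1425154_a_at and 1425155_x_at, gave 0.17 and 0.52 and were not called. No probe set of Csf1 was called in the difference of the 2 h response between the labels. Over all probe sets tested, 13.7% were called in WT and 13.1% in KO at 2 h. For KO minus WT at 4 h the 4 probe sets of Csf1 differed in sign. They ran from -0.53 for 1448914_a_at (adjusted p = 0.054 over all probe sets) to 0.20 for 1425154_a_at, and none was called.

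The stretches before the starts of Csf1 and Csf2 are shown as a description, on each gene's own strand. They come from the RefSeq promoter table of GRCm38.p6, which has no entry for Csf3. They cover the 250 bases before the start that the table lists, at chr3:107760470-107760719 (minus strand) for Csf1 and chr11:54249900-54250149 (minus strand) for Csf2. The capitals mark a match to the kappa-B consensus, the motif read by NF-kappa-B.
Csf1: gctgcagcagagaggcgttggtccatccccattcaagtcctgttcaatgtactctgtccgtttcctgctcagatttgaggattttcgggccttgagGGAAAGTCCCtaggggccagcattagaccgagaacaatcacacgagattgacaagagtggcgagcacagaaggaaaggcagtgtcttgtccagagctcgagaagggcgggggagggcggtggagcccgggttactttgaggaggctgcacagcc
Csf2: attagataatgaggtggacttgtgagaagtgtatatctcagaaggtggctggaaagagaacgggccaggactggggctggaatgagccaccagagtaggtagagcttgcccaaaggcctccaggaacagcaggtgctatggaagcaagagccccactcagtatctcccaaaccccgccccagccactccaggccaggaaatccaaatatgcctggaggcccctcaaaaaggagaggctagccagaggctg
The Csf1 stretch holds 1 kappa-B match, from 154 to 145 bases before the start. The consensus used reads the same on both strands, so every match to it is on both. A match of this kind lies in the same window of 9.55% of 32851 promoters. The Csf2 stretch holds no match to the kappa-B consensus, to the AP-1 motif TGANTCA, to the PU.1 motif GAGGAA or to the cytokine element core AGATTCC, searched on both strands. These motifs occur in 6.75% (TGANTCA), 23.3% (GAGGAA) and 3.14% (AGATTCC) of promoters, and no match says only that these letters are not in this window. Bases outside the window, after the listed start or further upstream, were not searched. Whether the motifs take part in the time courses was not tested. Of the 9 members, 6 had an entry in the table. Among the receptor genes, GAGGAA occurred once in the windows of Csf3r and Kit and 2 times in that of Csf2ra, Csf3r also held 1 kappa-B match, and Flt3 held no match to the 4 motifs.

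**Figure D2:**
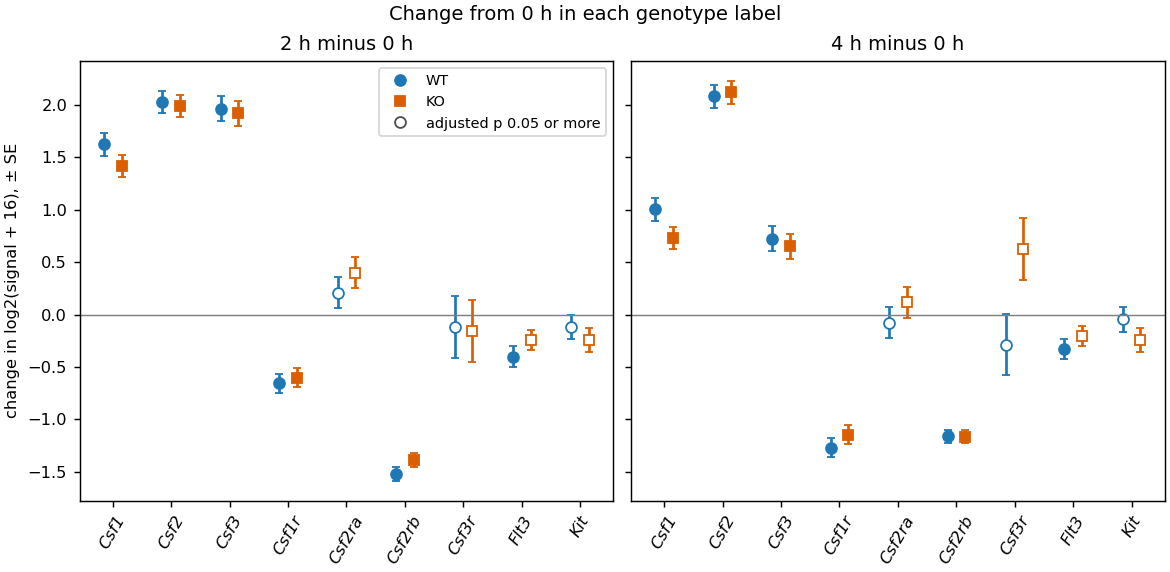
Change of each member from 0 h in log2(signal + 16), with bars of 1 SE, at 2 h on the left and 4 h on the right. Filled symbols passed adjusted p under 0.05. Csf2 is near 2 at both times, Csf3 drops from 1.96 to 0.73 in WT, and Csf2rb and Csf1r lie below 0 in both labels.

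Csf2rb encodes the common beta chain, the signalling subunit shared by the receptors of GM-CSF, IL-3 and IL-5. It fell in both labels at 2 h, and on its brightest probe set it came back in part by 4 h. WT arrays gave 7459.6 and 7336 (0 h), 2551 and 2590.5 (2 h), then 3318 and 3272 (4 h). KO arrays gave 6159 and 5812 (0 h), 2264 and 2284 (2 h), then 2489 and 2842 (4 h). All arrays at 0 h were above all later ones, and the 2 h arrays of each label were the lowest. The change at 2 h was -1.52 ± 0.06 in WT, 2.87-fold lower (adjusted p = 1.1e-10), and -1.39 ± 0.06 in KO, 2.62-fold lower. At 4 h it was -1.16 in both labels. The partial return from 2 to 4 h was 0.36 ± 0.06 in WT (adjusted p = 0.0019) and 0.22 in KO (adjusted p = 0.030). The KO return lost its call without KO 2 h A, KO 2 h B or KO 4 h B (adjusted p = 0.12, 0.11 and 0.32, the last at a change of 0.13), and under 4 of the other settings (0.060 to 0.14). The WT one lost it on the deposited scale (adjusted p = 0.17).

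The fall of Csf2rb did not rest on 1 probe set. The second, 1421326_at, changed by -2.01 and -1.40 in WT and by -1.80 and -1.62 in KO at 2 and 4 h, all called. Csf2rb2, which lies next to Csf2rb with no coding gene between and encodes a close relative that binds IL-3 in mice, fell by 0.96 and 0.79 in WT and by 0.73 and 0.68 in KO. A probe set annotated to both genes changed by -0.99 and -1.15 in WT and by -0.97 at both times in KO. The partial return was less uniform. From 2 to 4 h 1421326_at rose by 0.61 in WT (adjusted p = 0.0042 over all probe sets). In KO it changed by 0.19, not called (adjusted p = 0.37). The probe set annotated to both genes changed by -0.16 in WT and -0.0013 in KO, neither called. The sequences of these relatives are nearly alike, so how much of each signal belongs to which gene is uncertain.

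Csf1r, the receptor of M-CSF and IL-34, fell at 2 h and again by 4 h on its brightest probe set. WT arrays read 448 and 439 (0 h), 279 and 272 (2 h), then 188 and 162 (4 h). KO arrays read 583 and 622 (0 h), 388 and 395 (2 h), then 277 and 250.2 (4 h). Times did not overlap within a label, and at each time both KO arrays were above both WT arrays. The change was -0.65 ± 0.09 at 2 h and -1.27 ± 0.09 at 4 h in WT (2.41-fold lower, adjusted p = 7.8e-08), and -0.60 and -1.14 in KO (2.21-fold lower at 4 h). The step from 2 to 4 h was -0.62 in WT and -0.54 in KO, both called but not on the deposited scale (adjusted p = 0.48 and 0.65), and the WT one also not with averaged probe sets (0.090). Of its 3 probe sets, 3 fell at 4 h in WT and 2 in KO, with 1423593_a_at at -0.51 in KO (adjusted p = 0.068). At 2 h 2 fell in WT and 1 in KO. From 2 to 4 h 1 fell in WT and 2 in KO, with 1419873_s_at at -0.09 in WT (adjusted p = 0.84).

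Flt3, the receptor of FLT3 ligand, fell slightly in WT arrays. WT arrays gave 1245 and 1413 (0 h), 945 and 1059 (2 h), then 1038 and 1073 (4 h), and KO arrays gave 1192 and 1054, 1019 and 877, and 905 and 1039. Both later times lay below 0 h in each label, while the labels overlapped at 2 and 4 h. The WT changes were -0.40 ± 0.10 (adjusted p = 0.0082) and -0.33 (adjusted p = 0.030), and the KO changes, -0.24 and -0.21, were not called (adjusted p = 0.10 and 0.18). On the deposited scale the KO change at 2 h was called (-0.65, adjusted p = 0.029) and the WT change at 4 h was not (adjusted p = 0.37), nor was the latter with trimmed-mean scaling (0.098) or without the filter (0.058). The difference of the 2 h response between the labels was 0.16 with a 95% interval from -0.14 to 0.46, so a differing response was not shown. The WT call at 2 h had an adjusted p of 0.092 when WT 0 h B was left out and 0.096 when WT 2 h A was, and the one at 4 h had 0.23 without WT 0 h B, 0.15 without WT 4 h A and 0.084 without WT 4 h B.

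Kit, Csf2ra and Csf3r were not called in any comparison. Kit, the receptor of stem cell factor, ran from 533 to 692 on WT arrays and from 538 to 707 on KO arrays. Its changes from 0 h were -0.12 and -0.05 in WT and -0.24 at both times in KO, of which the KO value at 2 h was called only on the deposited scale (-0.69, adjusted p = 0.030). A second Kit probe set, 1415900_a_at, was dimmer, from 33.3 to 63.1 over the arrays. It changed by 0.01 and -0.18 in WT and by -0.07 and -0.02 in KO, none called. Mast cells carry KIT, and 5 of the 8 mast cell or progenitor markers measured lay below the filter, among them Ms4a2, Fcer1a and Mcpt4. Of the others, Cpa3 stayed at or under 21.7, Gata2 ran from 31.1 to 54.7, and Cd34, from 76.5 to 232, was higher in KO by 0.58 on average (adjusted p = 9.4e-05). The sum over the 8 at 0 h was 174 to 250.5 in WT and 324 in KO. Csf2ra, the chain that gives the GM-CSF receptor its specificity, ran from 95.8 to 133 in WT and from 105 to 169 in KO. At 2 h in KO it stood at 169 and 141, above 122 and 105 at 0 h, a difference of 0.40 ± 0.15 that was not called (adjusted p = 0.070) but was with the mean of its 2 probe sets (0.36, adjusted p = 0.025). Csf3r, the receptor of G-CSF, was near the filter of 10.6, with signals from 7.80 to 28.5 in WT and from 7.97 to 43.9 in KO. Its highest pair was KO at 4 h, 43.9 and 33.2, beside 27.9 and 7.80 in WT, a difference of 0.75 ± 0.29 (adjusted p = 0.26). In KO Csf3r changed by 0.63 from 0 to 4 h and by 0.78 from 2 to 4 h, neither called (adjusted p = 0.17 and 0.095). Without KO 2 h A the change from 2 to 4 h was 1.19. The summed signal of 7 neutrophil markers at 4 h was 340 to 379 in WT and 338 to 375 in KO. At 0 h it was 153 to 154 in WT and 128 to 132 in KO. That sum includes S100a8, at 58.7 to 266 over the arrays, which itself rose by 1.66 by 4 h in WT. Camp and Cxcr2, also in the sum, were below the filter.

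**Figure D3:**
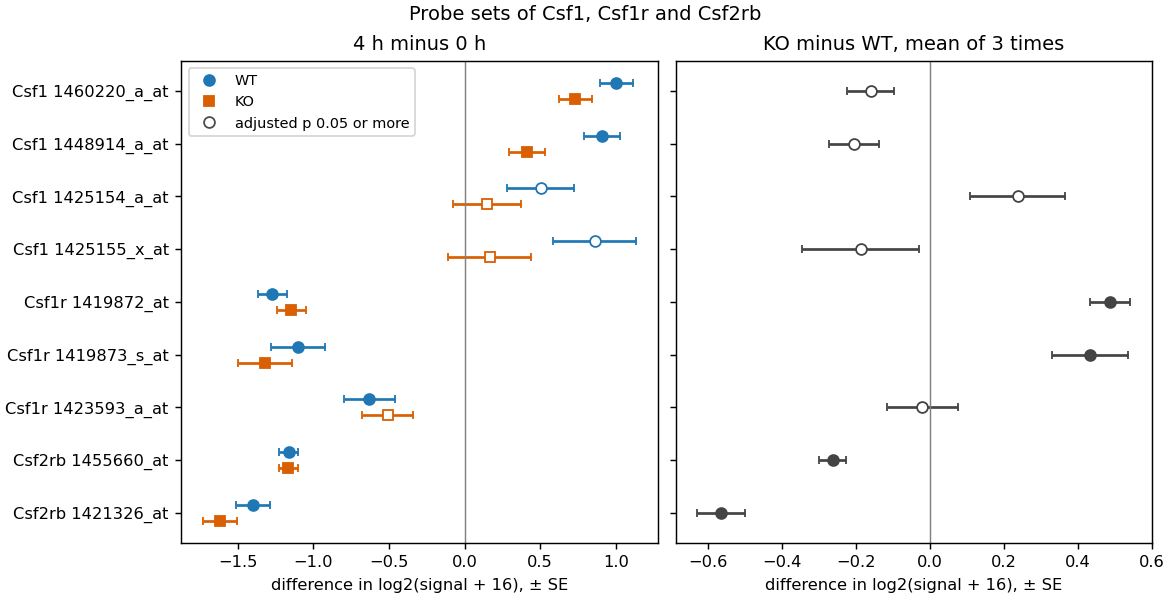
Difference in log2(signal + 16) with bars of 1 SE for each probe set of Csf1, Csf1r and Csf2rb, at 4 h against 0 h on the left and KO minus WT over the 3 times on the right. Filled symbols passed adjusted p under 0.05 over all probe sets. Both Csf2rb probe sets lie below 0 in both panels, and of the Csf1r probe sets 1423593_a_at lies at -0.02 in the right panel.

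Between the genotype labels, Csf1r was higher and Csf2rb lower on KO arrays, and no other member was called. At 0 h 2 of 9 members were called (3.3% of all genes tested), at 2 h 1 (2.3%), at 4 h 2 (2.39%) and on average over the times 2 (10.5%). Csf1r was higher in KO by 0.43 ± 0.09 at 0 h (adjusted p = 0.016), by 0.48 at 2 h (adjusted p = 0.0098) and by 0.55 at 4 h (adjusted p = 0.0036). Averaged over the times it was higher by 0.49 ± 0.05, or 1.40-fold (adjusted p = 1.8e-05). Its probe set 1419873_s_at was higher by 0.43 on average (adjusted p = 0.020), and 1423593_a_at was not called (-0.02). On the deposited scale the average was 0.29 (adjusted p = 0.33) and none of the 3 times was called; with averaged probe sets the times were not called either (adjusted p = 0.38, 0.057 and 0.38). The 0 h call was lost without any 1 of its 4 arrays (adjusted p = 0.054 without KO 0 h A, 0.13 without KO 0 h B, 0.060 without WT 0 h A and 0.11 without WT 0 h B). The 2 h call was likewise lost without any 1 of its arrays (0.058 without KO 2 h A, 0.093 without KO 2 h B, 0.059 without WT 2 h A and 0.10 without WT 2 h B), and the 4 h call without KO 4 h A (0.054) or WT 4 h B (0.074). The average kept its call without each array in turn (adjusted p at most 1.4e-04).

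Markers of macrophages and monocytes, and some of other cell types, were also higher on KO arrays. Of 11 such genes 9 were measured, all above the filter, and 6 were higher in KO on average, among them Lyz2 (0.95), a lysozyme of myeloid cells, C1qa (0.75), a complement subunit, and Adgre1 (0.69), the F4/80 antigen. The summed signal of the 9 was 2752 to 2770 in WT and 4523 to 4722 in KO at 0 h, and 2104 to 2299 in WT and 3436 to 3600 in KO at 4 h. With time in WT, 5 of the 9 fell and 2 rose by 4 h, with Lyz2 at -0.59 and Adgre1 at 0.66. Of 9 stromal or endothelial markers tested 4 were higher in KO on average, with a summed signal at 0 h of 690 to 766 in WT and 1080 to 1096 in KO. Of 10 dendritic cell markers 4 were higher in KO on average, Itgax (0.50), H2-Ab1 (0.46), Batf3 (0.44) and Sirpa (0.26), and Ccr7 was lower (-0.17). Among all genes tested, 6.21% were higher and 4.28% lower in KO on average, and by 4 h in WT 9.9% fell and 8.31% rose. The part of these cell types in the Csf1r differences was not tested.

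Csf2rb was lower in KO by 0.31 ± 0.06 at 0 h (adjusted p = 0.014), by 0.31 at 4 h (adjusted p = 0.019) and by 0.26 ± 0.04 on average (1.20-fold lower, adjusted p = 0.00022). At 2 h the difference of -0.18 was not called (adjusted p = 0.19), although both KO arrays lay below both WT arrays. The second probe set was lower by 0.57 on average and Csf2rb2 by 0.36. The 0 h call went to an adjusted p of 0.13 without KO 0 h B, 0.064 without WT 0 h A and 0.063 without WT 0 h B, the 4 h call to 0.19 without KO 4 h A, 0.13 without WT 4 h A and 0.10 without WT 4 h B, and the average kept its call under every setting and left-out array (adjusted p at most 0.0036). The 0 h and 4 h differences were also not called on the deposited scale (adjusted p = 0.75 and 0.43) or with trimmed-mean scaling (0.22 and 0.099), nor the 4 h one without the filter (0.052). Csf2 itself differed by -0.00 to 0.08 between the labels, with the difference at 2 h between -0.23 and 0.23. Csf1 was lower in KO by 0.27 ± 0.11 at 4 h and Csf3 higher by 0.16 on average, neither called (adjusted p = 0.26 and 0.16). Each was called on average when 1 array was left out, Csf1 at -0.22 without KO 0 h A (adjusted p = 0.018) and Csf3 at 0.23 without WT 2 h A (adjusted p = 0.039).

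In limma's test of the difference between the responses of the labels, 0 of 9 members were called at 2 h or at 4 h, beside 0.0313% and 0.0469% of all genes tested. At an unadjusted p under 0.05 there were 0 at 2 h and 1 at 4 h, which was Csf3r (0.91, 95% interval 0.03 to 1.80). The intervals leave room for moderate differences. That of Csf2 at 2 h ran from -0.36 to 0.28, that of Csf3 from -0.40 to 0.32, that of Csf1 from -0.53 to 0.11 and that of Csf2rb from -0.06 to 0.32.

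**Figure D4:**
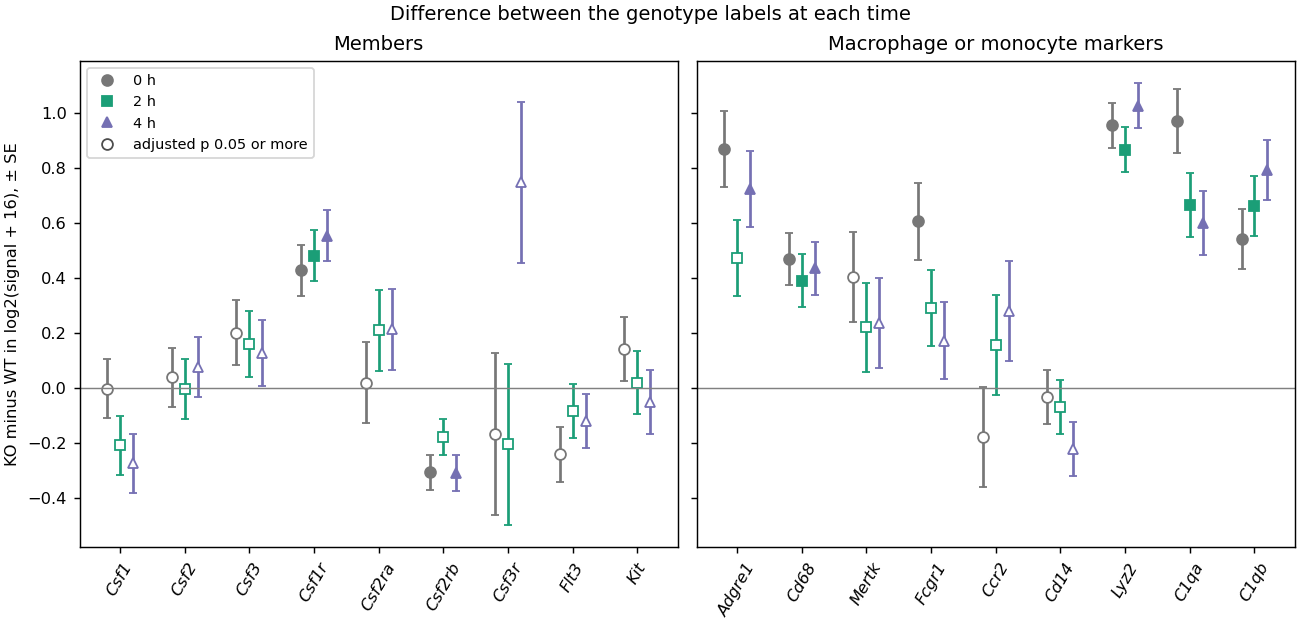
KO minus WT in log2(signal + 16) at 0, 2 and 4 h with bars of 1 SE, for the members on the left and for the 9 macrophage or monocyte markers measured on the right. Filled symbols passed adjusted p under 0.05. Csf1r lies above 0 at each time and Csf2rb below, and Lyz2, C1qa, C1qb and Cd68 lie above 0 at each time.

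Among other ligands and receptors of the same families, 9 of 14 genes were tested. At 2 h in WT 2 were higher and 1 lower, and in KO 3 were higher and 1 lower, beside 19.9% and 19.6% of all genes called. The list had a median change of 0.18 in WT beside -0.05 for all genes tested. Pdgfa and Pdgfb, growth factors whose receptors are related to CSF1R and KIT, rose by 0.97 and 0.59 in WT and by 0.76 and 0.57 in KO, and Csf2rb2 fell. Kitl, the ligand of KIT, rose by 0.45 in KO at 2 h (adjusted p = 0.045) and changed by 0.37 in WT, not called (adjusted p = 0.10). The difference of its 2 h response between the labels, 0.08, was not called. From 2 to 4 h Kitl fell by 0.63 in KO (adjusted p = 0.011). Kitl was higher in KO by 0.32 on average (adjusted p = 0.026). Il34, the other ligand of CSF1R, changed by 0.12 in WT at 2 h, not called. Il3, which lies next to Csf2 with no coding gene between, was below the filter, as were Il5 and Il5ra.

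Of 23 signal transducers of these receptors tested, 3 rose and 3 fell at 2 h in WT and 4 rose and 5 fell at 4 h. Called among all genes tested were 19.9% at 2 h and 18.2% at 4 h. The medians of the list were -0.02 at both times, beside -0.05 and -0.02 for all genes. Stat5a, a transcription factor that GM-CSF receptors activate, rose by 1.82 ± 0.09 at 2 h and 1.60 at 4 h in WT, and by 1.46 and 1.79 in KO. Its relative Stat5b rose by 4 h, by 0.63 in WT and 0.56 in KO. Ptpn11, the phosphatase SHP-2 that links these receptors to RAS, rose by 0.80 in WT and 0.88 in KO at 2 h. Grb2, an adaptor of the same route, fell by 0.50 and 0.39, Sh2b3, an inhibitor of JAK2 signalling, fell by 0.52 and 0.57, and Jak2 itself fell by 4 h, by 0.43 in WT and 0.28 in KO. On average over the times 5 were lower in KO, Cblb (-0.56), Stat3 (-0.43), Pik3r1 (-0.22), Stat5b (-0.20) and Grb2 (-0.16). The phosphatase gene Ptpn6 (0.16) was the 1 that was higher, and 10.5% of all genes tested were called.

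Of 18 targets and feedback genes of STAT5 and STAT3, 9 rose and 3 fell at 2 h in WT, with a median of 0.26, and 11 rose and 3 fell at 4 h, with a median of 0.43. In KO arrays 9 rose and 2 fell at 2 h and 10 rose and 2 fell at 4 h. Called at 2 and 4 h were 19.9% and 18.2% of all genes tested in WT, and 19.6% and 18.1% in KO. Bcl2l1, which encodes the survival protein BCL-XL, rose by 2.50 ± 0.09 in WT and 2.38 in KO at 2 h. Socs3, an inhibitor that also binds the G-CSF receptor, rose by 1.34 and 1.51, Lif by 1.58 and 1.74, and Ccnd2, a cyclin, by 0.99 and 1.20. Cish, an inhibitor of STAT5 signalling, was at 0.10 in WT at 2 h, not called, and rose by 0.48 by 4 h. Osm fell by 1.20 in WT and 1.19 in KO at 2 h, and Bcl6 fell by 0.49 and 0.43. On average over the times 4 were higher and 3 lower in KO, beside 10.5% of all genes called. Ccnd1, a cyclin, was higher by 1.01. Many of these genes also respond to other signals, and activity of the receptors was not measured.

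Of 14 transcription factors of growth-factor-dependent myeloid cells, 6 rose and 3 fell at 2 h in each label. At that time 19.9% of all genes tested were called in WT and 19.6% in KO. Cebpa and Batf3 fell in both, Spi1 was called only in WT, and Maf only in KO (-0.80, beside -0.51 in WT with adjusted p = 0.086); the difference between the labels was called for neither. Irf4, a factor of dendritic cells, rose by 2.38 in WT and 2.19 in KO. Spi1, which encodes PU.1, a regulator of Csf1r and Csf2ra, fell by 0.67 in WT at 2 h and changed by -0.34 in KO, not called (adjusted p = 0.056). At 4 h it fell by 0.46 in WT and 0.66 in KO. Averaged over the times 6 were higher in KO, among them Egr2 (0.55) and Batf3 (0.44), a factor of cross-presenting dendritic cells. Higher in KO on average were 6.21% of all genes tested.

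**Figure D5:**
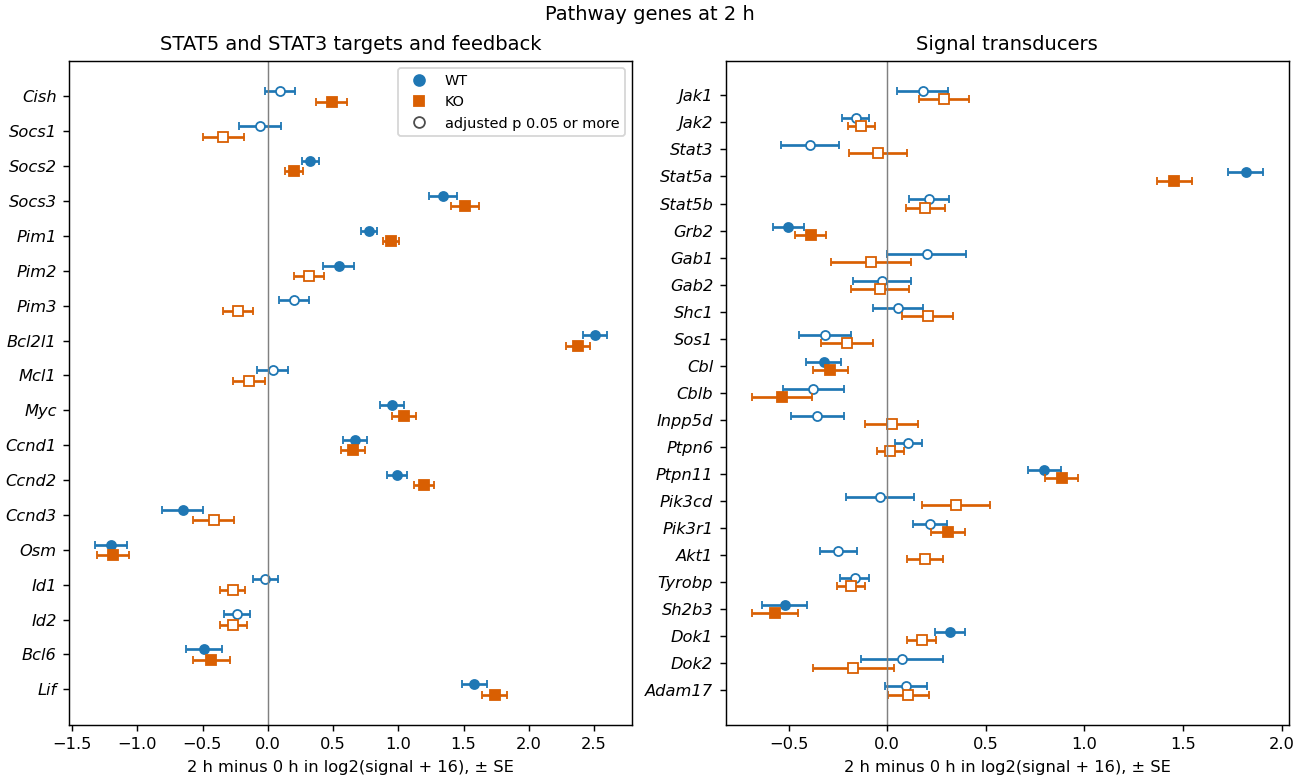
Change at 2 h from 0 h in log2(signal + 16), with bars of 1 SE, for the targets and feedback genes of STAT5 and STAT3 and for the signal transducers, with circles for WT and squares for KO. Filled symbols passed adjusted p under 0.05. Bcl2l1, Stat5a, Lif and Socs3 lie far to the right in both labels and Osm far to the left.

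Genes with the course most like each member were found by Pearson's r over the 12 arrays among all genes tested, as a description. The arrays share their groups and scaling, so genes that respond to the same cultures correlate in any case. For Csf2 they were Clec4e (r = 0.992), a receptor of mycobacterial lipid, Rilpl2 (0.991) and Il6 (0.990). For Csf3 they were Slc41a1 (0.988), Il1r2 (0.985), the decoy receptor of IL-1, and Dyrk2 (0.983), and for Csf1 they were Pvr (0.987), Gpr183 (0.986) and Gpr85 (0.986). Rrad (0.987), Ndnf (0.987) and Galc (0.985) came closest to Csf2rb, and Gpx1 (0.978), Tgfbi (0.978) and Coro7 (0.975) to Csf1r. For Flt3 the highest r was 0.951 (Lats2), for Csf3r 0.932 (Tcp11), for Kit 0.899 (Ctsh) and for Csf2ra 0.886 (Mtus1).

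By mean signal over the 2 arrays, the order of the 6 groups differed between members. For Csf1 it ran from WT 2 h through KO 2 h, WT 4 h and KO 4 h to the 0 h groups, and only the 0 h groups overlapped with their neighbour. For Csf2 it was KO 4 h, WT 4 h, WT 2 h, KO 2 h, KO 0 h and WT 0 h, and each group overlapped the next except KO 2 h and KO 0 h, while KO 4 h lay just above both 2 h groups. For Csf3 KO and WT at 2 h came first and overlapped, followed by KO 4 h, WT 4 h, KO 0 h and WT 0 h without overlap. For Csf1r the order was KO 0 h, WT 0 h, KO 2 h, WT 2 h, KO 4 h and WT 4 h, with WT 2 h and KO 4 h overlapping. For Csf2rb it was WT 0 h, KO 0 h, WT 4 h, KO 4 h, WT 2 h and KO 2 h, with KO 4 h and WT 2 h overlapping. For Flt3 only WT 0 h was separate from the next group, for Kit only KO 0 h, for Csf3r only KO 4 h and for Csf2ra only KO 2 h.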

How the data were processed

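RNA was hybridised to 12 Affymetrix mouse 3' arrays after in vitro transcription labelling, per the labels' protocols. The deposited values are linear intensities made with MAS5, per the submitters' processing notes; the scaling target is not given in the sources used here. Because the trimmed means of the arrays spread 1.79-fold, intensities were quantile-normalized before log2(signal + 16) was taken. Each gene was represented by its single-symbol probe set of highest mean, and genes below the 40th percentile of all probe sets (10.6 as a signal) were left out. With limma 3.58.1 (R 4.3.3), lmFit estimated the 6 group means of the 12792 remaining genes, and eBayes with trend moderated their variances (6 residual degrees of freedom, 9.13 from the prior). All tests are two-sided, and p-values were adjusted by Benjamini-Hochberg within each comparison. Intervals are 95% and unadjusted. The fit was checked on simulated data.

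The members, lists and tests were chosen with earlier results of these data known. Named genes are the members, Mapk14, up to 4 called genes of each list per comparison with the smallest p, and the 3 genes most like each member by Pearson's r. Outside that rule Cish, Bcl6, Il34, Il3, Il5 and Il5ra are named, as are cell type markers. Settings tried besides were the deposited scale, scaling by trimmed means, pseudocounts of 1 and 64, no filter, a 60th percentile filter, averaging the probe sets of a gene, the replicate letter as a block, and each array left out. The labels do not say whether A and B were different animals or cultures, so p-values measure the spread between these arrays, and 2 per group limit the precision.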

Additional observations from a re-analysis of the deposited data

How the results depend on the processing

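Of 37 called values among the 108 member values tested, 20 kept their call under every alternative and left-out array, and no called value was reversed. Called changes from 0 h of Csf2, Csf2rb and Csf1r, the 2 h changes of Csf1 and Csf3 and the average genotype difference of Csf2rb are among these. On the deposited scale the members called numbered 3 for KO 4 h against 0 h, 1 for KO 4 h against 2 h, 1 for WT 4 h against 2 h, 1 for the average genotype difference and 0 for KO minus WT at 0, 2 and 4 h. On that scale Csf3 and Flt3 also lost their call for WT 4 h against 0 h, and Flt3 and Kit gained one for KO 2 h against 0 h. Trimmed-mean scaling left 1 at 0 h and 1 at 4 h for KO minus WT. The mean of all probe sets left 1 at 0 h, 0 at 2 h and 1 at 4 h for KO minus WT and 2 for WT 4 h against 2 h, and no filter left 1 for KO minus WT at 4 h. Leaving out each array gave 0 to 2 members for KO minus WT at 0 h, 0 to 1 at 2 h and 0 to 2 at 4 h, and 5 to 6 for each WT change from 0 h. With the 60th percentile filter Csf3r was no longer tested.

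With the replicate letter as a block the member counts were the same in all 12 comparisons, at 6 for WT and 5 for KO against 0 h at each time. Over 15 pairs of groups the deviations of same-lettered arrays correlated at -0.04 to 0.10, so no strong shift shared by letter was seen. This cannot tell whether same-lettered arrays came from the same animals, cultures or day.

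On the deposited scale 832 genes in all were called for WT 4 h against 0 h (2330 after quantile normalization) and 31 for KO minus WT at 0 h (422), and at 2 h in WT 269 were higher and 2022 lower (1079 and 1467). The range of array brightness limits what can be said of absolute amounts, and probe sets near the filter, Csf3r among the members, had the widest errors.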
